A study of Mus musculus with 7 samples.

Results

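Lymphatic endothelial cells line the vessels that return fluid and immune cells from tissues to the blood. In the mouse aorta these vessels run in the adventitia, the outer coat of the artery. Here 65 such cells were found among 68662 kept barcodes of 7 single-cell libraries, out of 76359 deposited barcodes. A barcode was kept with at least 200 detected genes and at most 25% of its counts from mitochondrial genes. A kept barcode was selected on 4 genes known to mark the lineage, Prox1, Mmrn1, Flt4 and Nts, of which at least 2 had to have a transcript count (UMI, unique molecular identifier). It also had to have a UMI of Pecam1 or Cdh5, which endothelial cells express, and 0 UMIs of Ptprc (CD45, leukocytes) and Pdgfra (fibroblasts). These values chose the members, so they are described without a test.

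The libraries came from the aorta of mice fed a high-salt diet for 3 weeks, captured on the BD Rhapsody system. The 3 flox control libraries carry the genotype Slc38a2flox/flox, and the 4 endothelial knockout libraries carry Slc38a2deltaEC, a deletion of the amino acid transporter gene Slc38a2 aimed at endothelial cells. All 7 share the diet, and no group on normal chow is among them. The labels name neither the promoter of the recombinase nor the deleted exons, nor do they say that libraries came from separate animals, so p-values measure the spread between libraries. The labels give the cell type as goblet cells, but all 7 goblet marker genes had 0 UMIs in the lymphatic sums of the 4 libraries with at least 10 lymphatic cells.

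Lymphatic fate is set by the transcription factor PROX1, acting with NR2F2 (COUP-TFII) and SOX18. Growth of the vessels is driven by the ligands VEGF-C and VEGF-D, which are processed with the help of CCBE1 and ADAMTS3 and signal through the receptor VEGFR-3, encoded by Flt4, with the co-receptor neuropilin 2. The thin-walled initial vessels take up fluid and guide leukocytes with the chemokine CCL21, and they carry the hyaluronan receptor LYVE1, while collecting vessels have valves and smooth muscle.

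The upstream sequences of 4 genes are shown because the cells were selected on one of them (Nts), because Reln and Pdpn are lymphatic genes with among the largest differences described below, and because Hey2, a Notch target of arterial endothelium, is among the genes that were lower. Each is the 250 bases before the RefSeq transcript start, read 5′ to 3′ on the gene's own strand, in build GRCm38.p6. They lie at chr10:102490419-102490668 (minus strand, Nts), chr5:22344706-22344955 (minus, Reln), chr4:143299565-143299814 (minus, Pdpn) and chr10:30842784-30843033 (minus, Hey2). Capitals mark matches, on either strand, to the nuclear receptor half-site AGGTCA, the forkhead motif TGTTTAC, the SOX motif ACAAAG or the MAF half-site TGCTGA.
Nts: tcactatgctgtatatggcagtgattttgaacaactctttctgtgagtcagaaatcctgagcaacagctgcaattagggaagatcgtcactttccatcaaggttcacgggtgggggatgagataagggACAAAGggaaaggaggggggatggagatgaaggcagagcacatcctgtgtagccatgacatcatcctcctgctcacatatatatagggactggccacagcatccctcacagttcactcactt
Reln: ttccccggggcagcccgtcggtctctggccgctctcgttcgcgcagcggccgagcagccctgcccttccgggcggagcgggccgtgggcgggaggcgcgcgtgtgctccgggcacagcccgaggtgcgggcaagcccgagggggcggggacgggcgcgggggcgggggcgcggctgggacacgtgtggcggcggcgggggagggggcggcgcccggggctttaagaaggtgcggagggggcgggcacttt
Pdpn: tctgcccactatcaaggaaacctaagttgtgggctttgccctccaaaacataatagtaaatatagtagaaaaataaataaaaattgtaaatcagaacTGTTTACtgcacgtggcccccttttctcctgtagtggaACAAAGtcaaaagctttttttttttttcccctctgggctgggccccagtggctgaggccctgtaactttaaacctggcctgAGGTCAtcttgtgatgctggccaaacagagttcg
Hey2: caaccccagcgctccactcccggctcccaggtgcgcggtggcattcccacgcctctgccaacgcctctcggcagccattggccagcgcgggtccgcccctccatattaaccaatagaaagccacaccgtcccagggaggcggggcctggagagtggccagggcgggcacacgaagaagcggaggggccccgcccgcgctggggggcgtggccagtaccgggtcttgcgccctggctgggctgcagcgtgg
Pdpn held one match each of the nuclear receptor, forkhead and SOX motifs, Nts held one SOX match, and no match was found in the Reln and Hey2 windows. Of 32851 mouse promoter windows of this length, 14.0% held AGGTCA, 3.17% TGTTTAC, 16.5% ACAAAG and 16.1% TGCTGA. Of the 15 genes with the largest rise in the comparison below, 10 had a RefSeq window, and 1, 1, 2 and 1 of these held the respective motifs. A match is a run of letters and not a binding site.

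Lymphatic cells were few and unevenly spread over libraries. Flox controls 1, 2 and 3 gave 11, 27 and 0 of them, and knockouts 1, 2, 3 and 4 gave 4, 12, 11 and 0. Flox control 2 alone held 27 of the 65 cells, and both genotypes had a library without any. As a share of kept barcodes this was 0.110% ± 0.119 (SD, n = 3) in flox controls and 0.0618% ± 0.0525 (SD, n = 4) in knockouts, and the difference did not pass an exact two-sided permutation test over all 35 splits (p = 0.571, adjusted over 2 tests p = 0.571, smallest possible p = 0.0286). As a share of gated endothelial cells, meaning lymphatic plus blood vascular cells, it was 11.3% ± 9.93 (SD, n = 3) against 6.56% ± 4.68 (SD, n = 4), with an exact permutation p of 0.486 (adjusted p = 0.571). Without flox control 2 the difference in the first share changed sign, from -0.0478 to 0.0153 percentage points. In the 2 empty libraries, 0 of 5523 and 0 of 7293 barcodes allow shares of up to 0.0543% and 0.0411% by counting error alone. Knockout 4 had 292 blood vascular cells, more than any other library, and 0 lymphatic cells. It also had 271 smooth muscle cells (Myh11 and Acta2 at least 2 UMIs each), against 1727 to 3760 in the others.

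**Figure D1:**
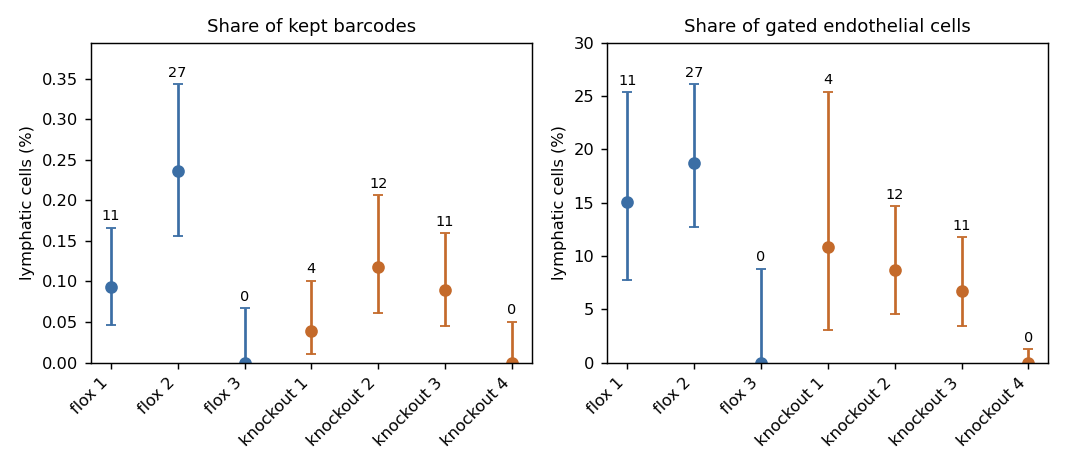
Lymphatic endothelial cells as a percentage of kept barcodes (left) and of gated endothelial cells (right) in each library, with exact 95% Clopper-Pearson intervals that cover counting error only. The number above each point counts the lymphatic cells, from 0 in flox control 3 and knockout 4 to 27 in flox control 2.

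The libraries held 6167 to 13792 barcodes and 22646246 to 73102988 UMIs each. Scrublet called 0.869% to 2.07% of kept barcodes doublets, and 0 of the 65 lymphatic cells. Between 486 and 1016 barcodes per library also occurred in another library, and 7 of the 65 cells carried such a barcode. The lymphatic cells held 534 to 27219 UMIs (median 4515) and 377 to 5468 genes (median 2073).

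All 4 selection genes were detected in 38 of the 65 cells, 3 of them in 20 and exactly 2 in 7. Just inside the rule, 4 of the 7 cells with 2 genes had a Lyve1 UMI, which is 57.1%. Just outside it, 10 of 180 barcodes with 1 of the 4 genes and otherwise the same profile had Lyve1, which is 5.56%. A further 11 barcodes lacked Pecam1 and Cdh5, of which 7 had Lyve1, and 12 had a UMI of Ptprc or Pdgfra, of which 10 had Lyve1. Ccl21a had a UMI in 3 of the 7 cells inside, and in 1 of the 180, 3 of the 11 and 8 of the 12 barcodes outside. The edge of the rule thus left out some barcodes with lymphatic transcripts. Markers that the rule did not use were present in most of the 65 cells, with Lyve1 in 55, Ccl21a in 48 and Reln in 50 of them, and 44 cells had all of these. Most of the cells thus carried lymphatic markers beyond the genes they were selected on.

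The selection genes varied between libraries. Mmrn1, which encodes the secreted protein multimerin 1, stood at 11178, 9294, 4927 and 4833 CPM in the lymphatic sums of flox control 1, flox control 2, knockout 2 and knockout 3. CPM here is the UMI count per 1000000 UMIs of the tested genes, scaled by edgeR's TMM factor, after summing the lymphatic cells of a library. Flt4 stood at 1563, 1546, 642 and 736 CPM in the same order, and Nts, which encodes the peptide neurotensin, at 687, 629, 3579 and 2933 CPM. Prox1 stood closer together, at 1445, 1556, 1493 and 1054 CPM. A barcode of knockout 3, described below, gave 24.7% of its lymphatic UMIs with 0 UMIs of Prox1 and Mmrn1. It thus lowers the CPM of these genes there, as a smaller barcode with 4307 UMIs does in knockout 2. Levels without them were not computed. Levels by library are a description, and genotypes were tested only as counts of cells. In the 4 cells of knockout 1, Mmrn1 had 83 UMIs and Nts 41 of 9382 UMIs in all. The neurotensin receptors Ntsr1 and Ntsr2 had 0 UMIs in the lymphatic and blood vascular cells.

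Lyve1, Ccl21a and Reln, which the rule did not use, also varied between libraries. Lyve1 stood at 9236, 10366, 1621 and 4987 CPM in flox control 1, flox control 2, knockout 2 and knockout 3. Ccl21a stood at 9378, 9902, 1284 and 3537 CPM, and Reln, which encodes the secreted protein reelin, at 3031, 3277, 722 and 1011 CPM. Knockout 2 was lowest for each of these genes. The barcodes of knockouts 2 and 3 named above had 0 UMIs of these genes as well, which lowers their CPM in both libraries. The 4 cells of knockout 1 had 134 Lyve1 UMIs of 9382, or 14283 per 1000000 UMIs, against 7922 and 8823 in flox controls 1 and 2 on the same scale. Their Ccl21a level was 3837 against 8044 and 8428, and their Reln level 1919 against 2600 and 2789. Knockout 1 thus lay above both flox controls in Lyve1 and below them in Ccl21a and Reln. These levels were not tested between genotypes.

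Some cells lacked these transcripts. Of the 65 cells, 10 had 0 Lyve1 UMIs, and 8 of these held at least 1000 UMIs, 5 of them in knockout 2 and 3 in knockout 3. The other 2, in flox control 2, held 674 and 656 UMIs. Of the 10 cells, 9 also had 0 Ccl21a UMIs and 9 had Nts. In knockout 2, 7 of 12 cells had Lyve1, 3 had Ccl21a and 11 had Nts. Cells such as one of knockout 2 with 15413 UMIs, of which 41 were Prox1, 48 Mmrn1 and 82 Nts and 0 were Lyve1 or Ccl21a, carried the lymphatic selection genes without the markers of initial vessels. Foxc2, a regulator of lymphatic valves, had UMIs in 2 of the 10 cells without Lyve1 and 10 of the 55 with it. Cldn11, a valve gene, had them in 0 of 10 and 6 of 55. For Foxc2 these shares were close, at 20% and 18.2%. The gene Ackr4 had UMIs in 6 of 10 (20 UMIs) and 2 of 55 (8 UMIs). It was read in 6 of 12 cells of knockout 2 and 2 of 11 of knockout 3. The 10 cells include both barcodes described next, and 1 of the 2 with Foxc2 is the larger of these.

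**Figure D2:**
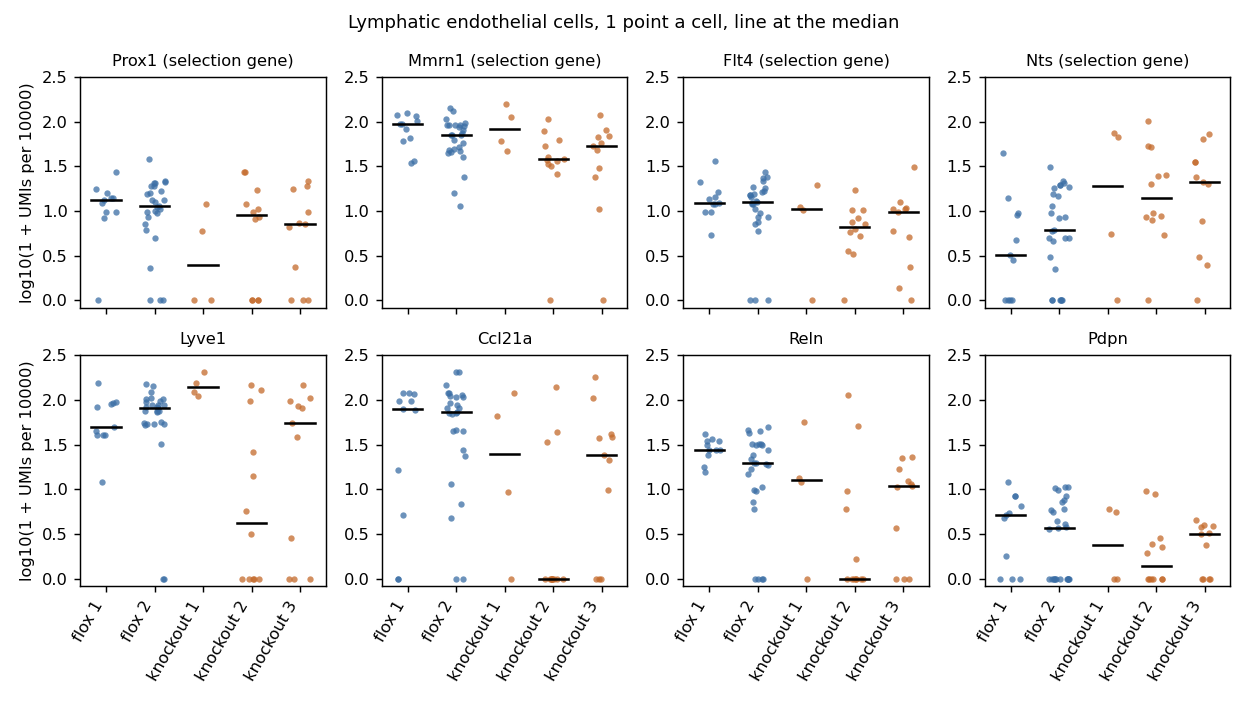
Level of 8 genes in each of the 65 lymphatic cells, as log10 of 1 plus the UMIs per 10000 of the cell, by library, with flox controls in blue and knockouts in orange. Lines mark medians. The median Lyve1 level of knockout 2 was 3.43 UMIs per 10000, against 48.6 in flox control 1 and 80.9 in flox control 2.

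A pair of the 65 barcodes stood apart. One in knockout 2 had 0 UMIs of Prox1, Mmrn1 and Lyve1, 1 of Flt4, 3 of Nts, 17 of Pecam1, 3 of Vwf and 29 of Cytl1. The other, in knockout 3, had 0 UMIs of Prox1, Mmrn1 and Lyve1, 1 of Flt4, 4 of Nts, 97 of Pecam1, 10 of Vwf and 307 of Cytl1, the last being genes of blood vascular endothelium. With 27219 UMIs this barcode gave 24.7% of the lymphatic UMIs of knockout 3. A further 2 cells, in flox control 2 and knockout 3, carried 28 and 43 UMIs of the smooth muscle gene Acta2 beside their lymphatic genes. All were kept under the rule. Requiring at least 3 of the 4 selection genes leaves out the first pair and 5 other cells, and values under that setting are given for the genes of blood vessels below.

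Slc38a2, the gene targeted in the knockout (chr15:96687392-96699730, minus strand), was read in lymphatic cells of every library that had them. It had 23, 83, 9, 31 and 43 UMIs in flox controls 1 and 2 and knockouts 1, 2 and 3, which is 467, 728, 959, 419 and 390 per 1000000 UMIs. Knockouts 2 and 3 were below both flox controls and knockout 1, with 4 cells, was above them. This order was not tested. Since the deleted part is not named in the labels, whether the counted reads come from it is not known. Against blood vascular cells of the same library the level was 545, 855, 498 and 472 CPM in lymphatic and 441, 469, 333 and 445 CPM in blood vascular sums of flox controls 1 and 2 and knockouts 2 and 3. It was higher in 4 of 4 libraries by 0.47 on the log2 scale (SE 0.23), short of the threshold in the edgeR test (adjusted p = 0.181). Of the other amino acid transporters on the list, 4 were tested, and Slc6a6, which carries taurine, was lower (log2 fold change -1.88, edgeR adjusted p = 0.0126). Over all genes tested 20.2% passed in either direction, so 1 of 5 tested transporters is near that share. With barcodes that had a Myh11 UMI left out, Slc6a6 differed by -1.51 and did not pass (edgeR adjusted p = 0.0747).

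To see which genes set lymphatic cells apart from their closest relatives, they were compared with blood vascular endothelial cells of the same library. The latter were 822 cells with Pecam1 and Cdh5 both detected and 0 UMIs of the 4 lymphatic genes, Ptprc and Pdgfra. The test used the 4 libraries with at least 10 lymphatic cells, with 49228 to 114026 UMIs in the lymphatic and 231009 to 764935 in the blood vascular sums. Of 3385 genes tested, 315 (9.31%) were higher and 368 (10.9%) lower in lymphatic cells at an edgeR adjusted p under 0.05, or 20.2% in all. The median log2 fold change over all genes tested was -0.03. The count rests most on flox control 2, without which it was 439. The 8 genes of the rule were not tested.

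Ccl21a, Reln, Lcn2, Duox2, Dtx1 and Lyve1 had the largest rises. Ccl21a, the ligand that draws CCR7-bearing dendritic cells and T cells into lymphatics, had 1759 UMIs in the 4 lymphatic sums and 1 in the blood vascular sums, a ratio of CPM of 10048 (exact 95% counting interval 1801 to 397096). Its log2 fold change was 12.20 (SE 0.40, edgeR adjusted p = 3.56e-09), higher in 4 of 4 libraries, which was a condition for naming it. The genome holds near-identical copies of this gene, and all 1795 lymphatic UMIs were assigned to 1 of the 2 models named Ccl21a, so the copy of origin is uncertain. Reln (chr5:21884454-22344702, minus strand) had 583 UMIs against 0, which is at least 1110-fold higher on a floor of 3 UMIs over the blood vascular group (edgeR adjusted p = 6.31e-07). Lyve1 (chr7:110850607-110863239, minus strand) stood at 6552 ± 4021 CPM in lymphatic and 13.7 ± 9.27 CPM in blood vascular sums (SD, n = 4). Its log2 fold change was 8.60 (SE 0.58, edgeR adjusted p = 1.38e-06).

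Several of the other genes had no UMI in blood vascular sums. Lcn2, an iron-siderophore binding protein, had 426, 546, 658 and 220 CPM in the lymphatic sums of flox controls 1 and 2 and knockouts 2 and 3 and 0 UMIs in all 4 blood vascular sums, at least 251-fold higher. Duox2, an oxidase that makes hydrogen peroxide, had 403, 361, 481 and 352 CPM against 0 UMIs, at least 217-fold higher. Dtx1, a ubiquitin ligase of the Notch pathway, had 237, 216, 257 and 275 CPM against 0 UMIs, at least 137-fold higher. Naming required the same sign in every library, so genes with 0 blood vascular UMIs had to be read in all 4 lymphatic sums. They also passed the filter on low counts through the lymphatic sums alone, as did Reln. Lbp, which binds bacterial lipopolysaccharide, stood at 523 ± 125 CPM against 3.40 ± 1.64, and Ptn, the growth factor pleiotrophin, at 549 ± 169 against 2.99 ± 2.36 (SD, n = 4). Igfbp5, which binds insulin-like growth factors, stood at 16483, 11953, 13898 and 12653 CPM in lymphatic sums and at most 432 CPM in blood vascular sums, a log2 fold change of 6.27 (edgeR adjusted p = 7.66e-07). The 15 largest rises also held Pard6g, Thy1, Pdpn, Maf, Adgrg3 and Sema3a, with log2 fold changes of 5.92 to 8.37.

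**Figure D3:**
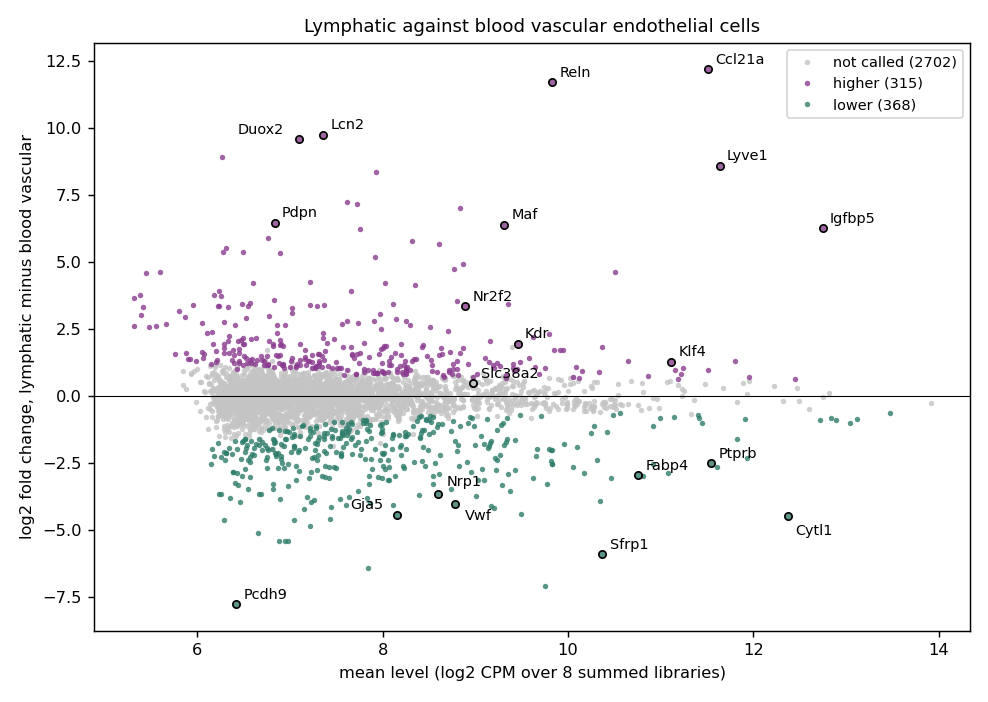
Mean level (log2 CPM) against the log2 fold change of lymphatic over blood vascular endothelial cells for 3385 genes in 4 libraries. Colours mark the 315 genes that were higher and the 368 that were lower. Labelled genes include Ccl21a, Reln and Lyve1 among those higher and Pcdh9, Sfrp1 and Cytl1 among those lower.

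Lymphatic identity genes outside the rule were higher as a group. Of 16 tested members of this list, 13 were higher (9.31% over all genes tested) and the other 3 did not pass. The median log2 fold change was 4.70 beside -0.03 over all genes tested. The list was chosen as lymphatic, so its direction is not independent evidence. Pdpn, the mucin-type glycoprotein podoplanin, had 497, 495, 128 and 231 CPM in flox controls 1 and 2 and knockouts 2 and 3 against 0 to 7.26 CPM in blood vascular sums. Maf, a transcription factor of lymphatic development, stood at 1448 ± 552 CPM (SD, n = 4) against 9.67 to 19.7 CPM, and Nr2f2 at 1019 ± 496 against 92.4 ± 22.9 CPM. The semaphorin genes Sema3a and Sema3d had log2 fold changes of 5.92 and 4.76. Sox18, Stab1 and Rassf9 did not pass the test, with log2 fold changes of -0.94, 0.71 and 0.70 (edgeR adjusted p = 0.0905, 0.0574 and 0.195). Tbx1, Nr2f1, Stab2 and Ccl21b had too few UMIs to be tested.

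In the VEGF-C and angiopoietin pathway, receptors divided between the 2 kinds of endothelium. Of 10 tested members 3 were higher and 3 lower (9.31% and 10.9% over all genes tested), with a median of 0.19. Nrp2, the co-receptor of VEGFR-3, had 497, 495, 738 and 428 CPM in lymphatic against 36.3 to 103 CPM in blood vascular sums, a log2 fold change of 3.05 (SE 0.32, edgeR adjusted p = 3.80e-05). Nrp1, the neuropilin of blood vessels, had 0, 61.8, 0 and 98.9 CPM against 510 to 733 CPM, a log2 fold change of -3.64 (SE 0.51, edgeR adjusted p = 3.33e-04). The neuropilin genes thus differed in opposite directions. With at least 3 selection genes required, Nrp1 differed by -6.27. Kdr, which encodes VEGFR-2, stood at 1197 ± 349 against 320 ± 136 CPM (SD, n = 4), a log2 fold change of 1.96 (edgeR adjusted p = 5.08e-05). Tek, the angiopoietin receptor TIE2, was lower by 1.27 on the log2 scale (edgeR adjusted p = 0.0128), but not past the threshold without flox control 1 (0.0624) or flox control 2 (0.0577), while Tie1 differed by 0.05 (adjusted p = 0.913). Ramp2, a subunit of the adrenomedullin receptor, was lower by 1.13 (adjusted p = 0.00171), and Calcrl, its partner, differed by 0.34 (adjusted p = 0.541).

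The ligands of the pathway were read mostly in other cells. Vegfd had 214 per 1000000 UMIs in fibroblasts (Pdgfra at least 2 UMIs), with 188 to 267 over 7 libraries, 53.2 in smooth muscle cells and 8.41 in lymphatic cells. Ccbe1 had 118 per 1000000 UMIs in fibroblasts and 11.2 in lymphatic cells, from 4 UMIs, and Adamts3 had 8.99 and 2.80, the latter from 1 UMI. Vegfc had 52.0 per 1000000 UMIs in blood vascular cells, 31.3 in fibroblasts and 14.0 in lymphatic cells, from 5 UMIs. These levels are per 1000000 UMIs of a gated class and were not tested.

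**Figure D4:**
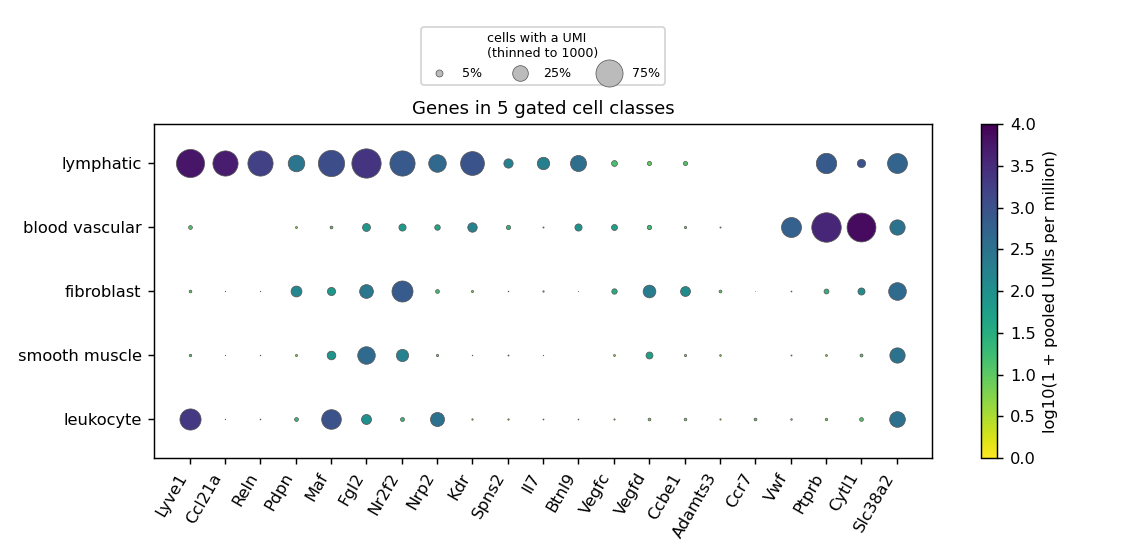
Genes in 5 gated classes. Dot area is the percentage of cells with a UMI after thinning each cell to 1000 UMIs, and colour is log10 of 1 plus the pooled UMIs per 1000000. After thinning, Lyve1 was read in 80.7% of lymphatic, 1.44% of blood vascular and 45.8% of leukocyte barcodes.

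Several of these genes were shared with classes other than blood endothelium. After each cell was thinned to 1000 UMIs, which left 57 lymphatic cells, Lyve1 was read in 80.7% of them, in 45.8% of leukocytes (Ptprc at least 2 UMIs) and in 0.605% of smooth muscle cells, which should lack it. Unthinned, these shares were 84.6%, 54.1% and 2.06%, at median depths by library of 2074 to 7380 UMIs in lymphatic and 2612 to 5148 in smooth muscle cells. Ccl21a and Reln were read in 64.9% of thinned lymphatic cells each, and in at most 0.0666% of any other gated class. Before thinning, Pdpn was read in 58.5% of lymphatic and 48.2% of fibroblast barcodes. These shares are not matched for depth, since fibroblasts had median depths by library of 5139 to 7692 UMIs. Maf was read in 70.2% of thinned lymphatic cells and 39.4% of thinned leukocytes. Prox1, a selection gene, had a UMI in 1.88% of leukocytes and 1.49% of fibroblasts before thinning.

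Genes of leukocyte traffic were split. Of 16 tested members 3 were higher and 6 lower (9.31% and 10.9% over all genes tested), with a median of -0.30. Beside Ccl21a, the higher genes were Il7, a survival cytokine of T cells, and Spns2, which exports sphingosine-1-phosphate into lymph. Il7 had 284, 350, 144 and 154 CPM in flox controls 1 and 2 and knockouts 2 and 3 against 0 to 10.3 CPM in blood vascular sums, a log2 fold change of 5.36 (SE 0.52, edgeR adjusted p = 2.36e-05). Spns2 had 142, 216, 369 and 143 CPM against 19.7 to 56.4 CPM, a log2 fold change of 2.93 (SE 0.41, edgeR adjusted p = 3.41e-04). The lower members were adhesion and traffic genes of blood vessels: Jam2, Vcam1, Cxcl12, Icam2, Cd200 and Selp, with log2 fold changes of -3.14, -3.06, -2.46, -1.39, -1.09 and -2.19. With at least 3 selection genes required, Vcam1 differed by -4.86, Jam2 by -4.11 and Cxcl12 by -3.43. Ackr2, a scavenging receptor for inflammatory chemokines that was too low for the test, had 27 UMIs in 16 of 65 lymphatic cells and 0 in 822 blood vascular cells. That count allows up to 0.365% of blood vascular cells with a UMI and does not limit the share that express the gene. Ccr7, the receptor of CCL21, had 0 UMIs in lymphatic cells and 9.41 per 1000000 UMIs in leukocytes. Marco and Madcam1, genes of lymph node sinus lymphatics, had 0 UMIs in all 65 cells, which allows up to 4.62% of cells with a UMI and does not limit expression below detection. Ackr4 had 28 UMIs in 8 of the cells.

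Valve and collecting vessel genes showed no common direction. Of 14 tested members 3 were higher and 5 lower (9.31% and 10.9% over all genes tested), with a median of -0.60. Gja1 (connexin 43), Nfatc1 and Klf4 were higher, with log2 fold changes of 2.68, 1.86 and 1.29 (edgeR adjusted p = 6.33e-04, 0.00104 and 7.73e-04). Gja4 (connexin 37), Bmp4, Fn1, Nos3 and Gata2 were lower, with log2 fold changes of -3.06, -4.09, -1.96, -1.48 and -1.05. With at least 3 selection genes required, Gja4 differed by -4.10 and Bmp4 by -6.93, and without knockout 3 Bmp4 differed by -6.54. Foxc2 had 23.7, 41.2, 96.3 and 54.9 CPM in lymphatic sums of flox controls 1 and 2 and knockouts 2 and 3 and 56.4, 126, 90.3 and 108 CPM in blood vascular sums. These ranges overlapped, and the difference did not pass the test (log2 fold change -0.86, edgeR adjusted p = 0.183).

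Among matrix and hyaluronan genes, 6 of 19 tested members were higher and 5 lower (9.31% and 10.9% over all genes tested), with a median of 0.07. Beside Lyve1 and Reln, the higher ones encode basement membrane proteins. The laminin chains Lama4, Lamb1 and Lamc1 had log2 fold changes of 2.57, 3.37 and 1.24, and nidogen 2, Nid2, had 4.62 (SE 0.55, edgeR adjusted p = 1.26e-04). Nid2 stood at 142, 113, 144 and 187 CPM in lymphatic and at most 11.5 CPM in blood vascular sums. Collagen IV chains Col4a1 and Col4a2 did not pass (log2 fold changes of -0.11 and -0.53), while Col4a4 had 3 UMIs against 322, a ratio of 18.8 in favour of blood vessels (exact 95% counting interval 6.37 to 91.6).

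Blood endothelial identity genes were lower. Of 26 tested members 18 were lower (10.9% over all genes tested) and the other 8 did not pass. The median was -2.40, beside -0.03 over all genes tested. The list was chosen as blood endothelial, so its direction is not independent evidence. Ptprb, the endothelial receptor phosphatase VE-PTP, had 782, 711, 738 and 1329 CPM in lymphatic sums of flox controls 1 and 2 and knockouts 2 and 3 against 4019 to 5545 CPM in blood vascular sums, a log2 fold change of -2.50 (SE 0.22, edgeR adjusted p = 9.04e-06). Vwf, von Willebrand factor, had 0, 0, 64.2 and 110 CPM against 528 to 873 CPM, a log2 fold change of -4.04 (SE 0.51, edgeR adjusted p = 1.83e-04). Cytl1, a secreted protein, had 94.7, 10.3, 546 and 3383 CPM against 7637 to 11534 CPM, a log2 fold change of -4.50. All but 1 of the 308 Cytl1 UMIs of knockout 3, and all 10 of its Vwf UMIs, came from the 1 large barcode described above. In knockout 2 the other barcode of that pair gave 29 of 34 Cytl1 UMIs and 3 of 4 Vwf UMIs. Requiring at least 3 of the 4 selection genes leaves out both barcodes and 5 other cells. The log2 fold changes were then -7.74 for Cytl1 and -7.40 for Vwf.

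The largest falls with the same sign in every library were in Pcdh9, Klk10, Sfrp1, AU021092, Myrip, Twist1, Scarb1, Hey2, Ptk2b, Scara3, Ephx2, Cytl1, Gja5, Pde3a and Col4a4. Sfrp1, a secreted inhibitor of Wnt signalling, had 0, 10.3, 0 and 143 CPM in lymphatic and 1825 to 2842 CPM in blood vascular sums, a log2 fold change of -5.92 (SE 0.55, edgeR adjusted p = 1.77e-05). Hey2 had 2 UMIs against 360, a ratio of 31.5 (exact 95% counting interval 8.66 to 261), and Gja5, the arterial connexin 40, had 6 UMIs against 732. Pcdh9, a protocadherin, had 0 UMIs against 183, at least 10.7-fold lower on a floor of 3 UMIs over the lymphatic group. Notch4 was lower by 3.82, whereas Notch1, Dll4 and Efnb2 differed by 0.12, 0.04 and -0.18 and did not pass. With at least 3 selection genes required, the fall of Sfrp1 was -9.23 and that of Gja5 -9.81. Without knockout 3 Gja5 differed by -9.74.

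Of 14 tested junction genes 1 was higher (Gja1) and 5 lower (Esam, Jam2, Gja4, Gja5 and Cdh13), beside 9.31% and 10.9% of all genes tested. Cldn5, which seals endothelial junctions, differed by 0.47 (edgeR adjusted p = 0.245). Of 16 tested shear and vasoactive genes 2 were higher and 7 lower (9.31% and 10.9% over all genes tested). Ednrb, the endothelin B receptor, was higher, with 142, 443, 417 and 308 CPM in flox controls 1 and 2 and knockouts 2 and 3 against 55.8 to 88.1 CPM in blood vascular sums (log2 fold change 2.14, edgeR adjusted p = 4.27e-04). Edn1, the peptide endothelin 1, had 0, 0, 144 and 220 CPM against 566 to 1127 CPM (log2 fold change -3.14, edgeR adjusted p = 0.00456), and differed by -4.62 with at least 3 selection genes required. Ace, the angiotensin-converting enzyme, was lower by 3.34 (adjusted p = 1.26e-04). Of 11 tested genes of fatty acid uptake and oxidation 3 were lower (10.9% over all genes tested), the uptake genes Fabp4, Fabp5 and Cd36. The other 8 did not pass. Fabp4 ranged from 0 to 899 CPM between the lymphatic sums. Cpt1a, the gate of mitochondrial fatty acid oxidation, differed by -0.60 and did not pass (adjusted p = 0.204).

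**Figure D5:**
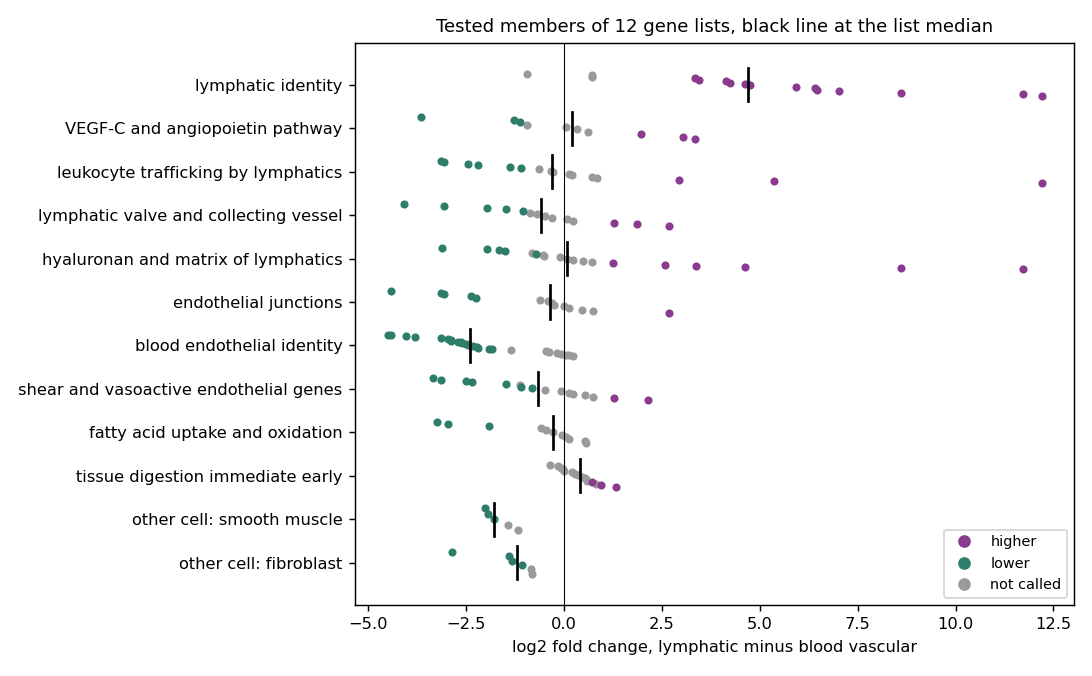
Log2 fold change of lymphatic over blood vascular cells for the tested members of 12 gene lists, with the call of each gene by colour and the list median as a black line. The medians run from -2.40 for blood endothelial identity to 4.70 for lymphatic identity.

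Markers of other cells and of handling were compared as well. Over all genes tested, 9.31% were higher and 10.9% lower. Smooth muscle genes summed to 64.2 to 2065 CPM in lymphatic and 1637 to 4379 CPM in blood vascular sums, with 3 of 5 tested members lower and Des at 0 UMIs in lymphatic sums. Fibroblast genes summed to 526 to 2866 against 1144 to 4056 CPM, with 4 of 6 tested lower, and erythroid genes to 0 to 94.7 against 128 to 8890 CPM. Macrophage genes summed to 261 and 134 CPM in the lymphatic sums of flox controls 1 and 2 and to at most 32.1 CPM in knockouts 2 and 3, from 11, 13, 2 and 2 UMIs, against 144, 50.8, 112 and 50.9 CPM in blood vascular sums. On these few UMIs they read higher than in blood vascular sums in both flox libraries and lower in both knockouts. This was not tested, and no counting interval was computed for it. Adipocyte genes, with 10 UMIs in all lymphatic sums, were higher there in 3 of 4 libraries. T and B cell, mesothelial, Schwann and cardiomyocyte lists had 7 of 8, 6 of 6, 6 of 6 and 5 of 6 genes at 0 in lymphatic sums. With barcodes that had a Myh11 UMI left out of both classes, 492 of 2216 tested genes were called. Of 16 immediate early and stress genes Hspa1b, Atf3 and Junb were higher, by 1.31, 0.95 and 0.72 on the log2 scale. The other 13 did not pass. This count stands beside 9.31% of all genes tested that were higher and 20.2% called in either direction. Without the Myh11 barcodes Hspa1b and Atf3 differed by 0.98 and 0.80 in the same direction, and did not pass with fewer cells and genes tested (edgeR adjusted p = 0.0724 and 0.0695). Junb did not pass without flox control 1, flox control 2 or knockout 3 (0.0705, 0.0809 and 0.0820). In the 4 tested libraries the median mitochondrial share was 3.30% to 5.39% in lymphatic and 5.34% to 7.74% in blood vascular cells. The part of these values in the results was not tested.

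The proliferation genes Mki67 and Top2a had 0 UMIs in all 65 cells, which allows up to 4.62% of cells with a UMI and does not limit expression below detection. Pcna, also a DNA repair gene, was higher by 0.92 (SE 0.23, edgeR adjusted p = 0.0128). Pcna did not pass without the Myh11 barcodes (0.70, adjusted p = 0.118) or with no filter on low counts (0.72, adjusted p = 0.125). Of 7 tested genes of antigen presentation and interferon response 3 were lower (10.9% over all genes tested) and the other 4 did not pass. H2-K1, a class I heavy chain, had 474, 618, 2311 and 1834 CPM in lymphatic sums of flox controls 1 and 2 and knockouts 2 and 3 against 1543, 2443, 2902 and 3045 CPM in blood vascular sums (log2 fold change -1.14, edgeR adjusted p = 0.0116). It did not pass without flox control 1 (0.0797), without flox control 2 (0.0786) or with no replicate block (0.145). H2-D1 (-0.79, edgeR adjusted p = 0.0263) did not pass without flox control 1 (0.192), without flox control 2 (0.112), with no block (0.132) or with DESeq2 (0.0589). Gbp2 (-0.96, edgeR adjusted p = 0.0486) did not pass without flox control 1 (0.136), flox control 2 (0.226) or knockout 2 (0.115), nor with DESeq2 (0.130).

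The comparison depends on the gate for blood vascular cells. With barcodes that had only 1 of Pecam1 and Cdh5 also taken as comparison cells, 2147 of 9438 tested genes were called. Ptprb then differed by -0.02, Ramp2 and Tek changed sign to 1.22 and 1.13, and Edn1 (-0.95), Gja4 (-0.76), Jam2 (-1.04), Vcam1 (-0.96), Esam (-0.30) and Fabp5 (-1.80) did not pass. Under the same gate the smooth muscle genes Acta2 and Myh11 went from -2.03 and -1.43 to -5.38 and -5.25, and the fibroblast gene Col1a2 from -1.06 to -3.57, so the added barcodes carried more of these transcripts. The part of those transcripts in the reversals was not tested.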

How the data were processed

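The authors deposited UMI counts per gene and barcode for 7 BD Rhapsody libraries, with 31253 genes, of which 31107 (99.5%) matched GENCODE vM21. The submitters' processing notes name CASAVA 1.8, STARsolo 2.7.10a, Seurat and build mm10. The role of each tool and the annotation were not given in the sources used here. Cells, classes and shares were computed from these counts with scanpy 1.11.5. Doublets were called by Scrublet in each library (expected rate 0.06) and kept, with their removal as an alternative. Intervals on shares are exact Clopper-Pearson at 95% and, like floors of 3 counts, cover counting error only. Upper limits for genes with 0 UMIs in a class are such floors, of 3 cells.

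UMIs were summed per library and class in libraries with at least 10 lymphatic cells and tested with edgeR 4.0.16 (R 4.3.3): TMM, filterByExpr, quasi-likelihood test, library as a block because both classes came from the same library, and Benjamini-Hochberg adjustment with a threshold of 0.05. The fit was also run on simulated data with the same dispersion for all genes and no library effect beyond depth. Those settings differ from the real data, and no result here rests on that run. Shares were compared between genotypes with exact permutation tests. Named genes were the 15 highest and 15 lowest log2 fold changes among called genes with a mean log2 CPM of at least 5 and the same sign in every library, leaving out Gm and Rik models, with Slc38a2 and up to 6 members with the smallest p of each list. Further list members and single cells were singled out after their values were seen. The members and lists were chosen with earlier results of these data known. Alternatives were DESeq2 1.42.0, other gates and filters, thinning to 1000 UMIs, no block and each library left out.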

Additional observations from a re-analysis of the deposited data

How the results depend on the processing

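The count of called genes, 683 of 3385, was 552 with DESeq2, of which 546 were shared, and 718 with no replicate block. It moved by over 1.5 times in 4 settings: 1118 of 15818 with no filter on low counts (372 higher and 746 lower, against 315 and 368), 2147 of 9438 with comparison cells that had at least 1 of Pecam1 and Cdh5, 211 of 693 after thinning to 1000 UMIs, and 439 without flox control 2. Leaving out each library in turn gave 439 to 652. The median log2 fold change of all genes was -0.03, and -0.55 with no filter and -0.26 with the broader comparison cells. Under the latter Ramp2 (1.22), Tek (1.13), Cd36 (0.45), Acadm (-0.39), Slc3a2 (0.67), H2-K1 (0.64), H2-D1 (0.87), Gbp2 (0.65), B2m (0.50) and Psmb8 (1.42) changed sign, as did Slc7a1 (-0.21) with both Pecam1 and Cdh5 required in lymphatic cells. The cause was not tested. Of 1524 values of 100 named genes and their alternatives, 1422 kept direction and side of the threshold. Both counts include 100 values from a minimum of 5 cells per library. That setting kept the same 4 libraries as the main test, so its values could not differ. The difference in share between genotypes ranged from -0.103 to 0.0153 percentage points of kept barcodes, the latter without flox control 2, and from -10.3 to -0.971 of gated endothelial cells, with each library left out. With a replicate block over the 3 library numbers that both genotypes share, these differences were -0.0272 and -2.52 (exact sign-flip permutation p = 0.75 each, smallest possible p = 0.25). The labels do not say that equal numbers pair libraries of the 2 genotypes. Leaving out barcodes with Myh11 (492 genes called) and shared barcodes (647) was chosen after seeing the data. A minimum of 20 cells per library was not run because it leaves 1 library. Few lymphatic cells limit what low genes can show.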
